A study of Mus musculus with 4 samples.

Results

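IGF2BP2 was immunoprecipitated from mouse bone marrow cells and the bound RNA was sequenced, and the peaks called over the input from that library are described here. All peaks of the IGF2BP2 list were taken, which gave 7069 of the 19866 peaks in the series. The other lists held 2834 peaks for YTHDF2 and 9963 for YTHDC1. The gene under its summit was taken for each peak, preferring exonic to intronic and protein-coding to other genes.

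The series held 4 libraries, 1 each for IGF2BP2, YTHDF2, YTHDC1 and the input, all from the lin- c-Kit+ fraction of bone marrow. They are named LIC in the labels, an abbreviation not explained there, and only the series title places them in leukaemia. Genotype, strain, age, any oncogene used and the number of animals were not given in the sources used here. All cells were grown in IMDM with fetal bovine serum, IL-3, IL-6 and SCF, and all were crosslinked 3 times with UV light of 254 nm at 120 mJ per cm2. The IGF2BP2 library was made with a commercial antibody from Proteintech, and the input shared its crosslinking and library steps. Each stranded mRNA library started from 1 µg of RNA, went through 20 PCR cycles and was size-selected between 250 and 450 bp.

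With 1 library there was no replicate check and no test between conditions. Intervals are exact (Clopper-Pearson) 95% binomial intervals and cover counting error only, and library depth was unknown. The pileup is the authors' height of stacked fragments at a summit, and the fold is their ratio of pileup to local background. Over all IGF2BP2 peaks the median pileup was 5, 90% of peaks had a pileup of 18 or less and the highest was 199. The median length was 131 bp, and 1974 peaks had the shortest length in the list, 100 bp. A peak list holds no expression levels, so the cell type label could not be checked by level. Of 9 myeloid progenitor markers 1 had a peak (Csf1r, the receptor for macrophage colony-stimulating factor, pileup 2). Of 8 mature myeloid markers 2 did, the integrin gene Itgam with 2 peaks and S100a9 with 1. None of 9 lymphoid and none of 7 erythroid markers had a peak. Of 5 megakaryocyte markers Itga2b had 1, and of 7 stromal and endothelial markers Pdgfrb had 1, an intronic peak with a pileup of 13 and a fold of 11.3, the highest of the marker peaks. Over all protein-coding genes 12.2% had a peak, and the interval of each marker list included that share. A list of 5 to 9 members includes it even when none has a peak, so these lists could not show a lower share.

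IGF2BP2 belongs to a family of RNA-binding proteins with RRM and KH domains that act mainly in the cytoplasm, where they bind mRNA, protect it from decay and affect its transport and translation. The family is known as a group of readers of N6-methyladenosine (m6A), a methyl mark on adenosines of RNA whose core motif contains GGAC. IGF2BP2 is known to be expressed in myeloid leukaemia. The KH domains of the family are known to bind short CA-rich elements, of which CATA, CATC and CATT in DNA letters are the usual core.

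The sequences under the coding summits were rich in purines, and the windows at the strongest coding summit of 8 genes with most coding peaks are shown for that reason. Each window reaches 50 nt to either side of the summit, is written 5′ to 3′ on the strand of the gene as in the GENCODE transcript on GRCm38, and holds coding sequence only. Capitals mark every copy of GAGG (1.78 times as frequent at coding summits as in the whole coding sequence of the same genes), AGGA (1.78 times), GAAG (1.72 times) and GGAG (1.67 times), the leading tetramers of all. The windows lie at chr10:5083835-5083935 on the minus strand in exon 127 of 146 of Syne1, at chr15:77775123-77775223 on the minus strand in exon 22 of 41 of Myh9, and around the summit at position 155983318 of chromosome 2 on the plus strand in exon 22 of 33 of Cep250, where the window crosses into the neighbouring exon. Those of the next genes lie at chr10:76436428-76436528 on the minus strand in exon 4 of 42 of Pcnt, at chr10:12714218-12714318 on the minus strand in exon 19 of 74 of Utrn, and at chr12:100944926-100945026 on the minus strand in exon 15 of 30 of Ccdc88c. The last lie at chr2:35171053-35171153 on the plus strand in exon 37 of 44 of Cntrl and at chr15:76179030-76179130 on the minus strand in exon 32 of 33 of Plec. Dync1h1 had 15 coding peaks like Ccdc88c, Cntrl and Plec but a lower summed pileup, and its window is not shown.
Syne1: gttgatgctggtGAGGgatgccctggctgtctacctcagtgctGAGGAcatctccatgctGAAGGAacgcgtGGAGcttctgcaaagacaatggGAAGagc
Myh9: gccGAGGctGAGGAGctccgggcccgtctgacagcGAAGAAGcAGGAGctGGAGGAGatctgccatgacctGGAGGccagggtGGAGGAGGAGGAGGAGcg
Cep250: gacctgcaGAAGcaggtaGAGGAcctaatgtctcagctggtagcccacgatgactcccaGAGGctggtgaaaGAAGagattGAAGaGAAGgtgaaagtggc
Pcnt: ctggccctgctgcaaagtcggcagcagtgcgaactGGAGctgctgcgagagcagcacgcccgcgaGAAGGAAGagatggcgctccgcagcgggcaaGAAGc
Utrn: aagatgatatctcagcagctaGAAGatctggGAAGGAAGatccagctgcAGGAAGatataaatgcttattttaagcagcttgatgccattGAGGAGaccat
Ccdc88c: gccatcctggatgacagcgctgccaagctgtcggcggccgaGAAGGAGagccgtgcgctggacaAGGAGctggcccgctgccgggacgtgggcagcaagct
Cntrl: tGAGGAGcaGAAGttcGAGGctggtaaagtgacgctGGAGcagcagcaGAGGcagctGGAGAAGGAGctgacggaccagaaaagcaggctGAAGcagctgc
Plec: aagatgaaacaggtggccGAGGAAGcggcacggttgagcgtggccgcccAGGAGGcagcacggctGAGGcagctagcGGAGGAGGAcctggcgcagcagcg

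The Myh9 window had a pileup of 141 and held 68.3% purines, against 59.7% over the coding sequence of that gene. In Cntrl the window had a pileup of 35 and held 70.3% purines, against 60.2% over its coding sequence. The Syne1 window had a pileup of 20 and held 56.4% purines, slightly under the 56.9% of its coding sequence. Utrn, at 60.4% against 56.6%, lay between these. Purine content thus differed between these windows, and the strongest peak of a gene was not always in a purine-rich stretch.

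The title of the series names Prmt6, an arginine methyltransferase, and Mfsd2a, a transporter of lysophosphatidylcholine. Their windows are shown for contrast. That of Prmt6 lies at chr3:110250508-110250608 on the minus strand in exon 1 of 2. That of Mfsd2a surrounds the summit at position 122949504 of chromosome 4 on the minus strand in exon 10 of 14 and crosses an exon junction.
Prmt6: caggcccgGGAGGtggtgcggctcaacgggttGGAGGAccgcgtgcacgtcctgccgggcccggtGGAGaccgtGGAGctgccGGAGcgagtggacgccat
Mfsd2a: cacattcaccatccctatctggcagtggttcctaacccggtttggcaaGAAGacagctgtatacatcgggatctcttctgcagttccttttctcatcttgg

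The Prmt6 window had a pileup of 8, 58.4% purines and 8 starts of the capital tetramers. The Mfsd2a window had a pileup of 6, 39.6% purines and 1 such start. Both genes had few peaks: 2 in Prmt6 with a summed pileup of 12, and 1 in Mfsd2a. This was common, as 54.7% of bound protein-coding genes had 1 peak. The pileups of 8 and 6 in the 2 windows were near the median of 6 over all coding peaks. The Igf2bp2 gene itself had 1 coding peak with a pileup of 3 and a fold of 3.90, and neither Igf2bp1 nor Igf2bp3 had a peak.

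IGF2BP2 peaks fell on 2669 protein-coding genes, 9 of which have no complete coding transcript. The background is 21809 protein-coding genes whose coding transcript is complete: 2660 of them had at least 1 peak (12.2%) and 261 had at least 5 (1.20%). This background includes genes that the cells may not express, and expression was not measured in the files used. Most bound genes had a single peak: 1459 of 2669, or 54.7% (interval 52.8 to 56.6), and these held 24.3% of the 5997 peaks in protein-coding genes. The 50 genes with 10 or more peaks held 12.1% of them. Pileup was more uneven than peak number. The 267 genes with the highest summed pileup, 10% of bound genes, held 50.3% of it, over 1763 peaks that covered 376814 bp with a mean pileup of 15.2. The other 2402 genes held 4234 peaks over 648762 bp with a mean pileup of 6.25.

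Genes with many peaks had longer transcripts and more coding peaks. The median spliced length was 3690 nt for genes with 1 peak, 4014.5 nt for 2 to 4 peaks, 4805 nt for 5 to 9 and 7562.5 nt for 10 or more. The coding sequence held 43.7% of peaks in single-peak genes (41.2 to 46.3) and 66.1% in genes with 10 or more (62.5 to 69.5), whereas introns held 35.0% and 25%. The share of peaks that overlapped a YTHDF2 or YTHDC1 peak did not follow this order: it was 44.3%, 45.5%, 48.6% and 45.2% in the 4 groups. Median pileup was 4 in single-peak genes and 7 in genes with 10 or more.

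The share of bound genes rose with spliced length, without expression taken into account. When all protein-coding genes were put into 5 equal classes by spliced length (chosen after the values were seen), the bound share was 3.32% in the shortest, then 6.88%, 11.8%, 15.7% and 23.3% in the longest. Of the 261 genes with at least 5 peaks, 156 were in the longest class and 1 was in the shortest. Within bound genes length and peak number were weakly related (Spearman rho 0.174 over 2660 genes, which are not independent replicates). The part of length in the gene lists described further on was not tested.

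**Figure D1:**
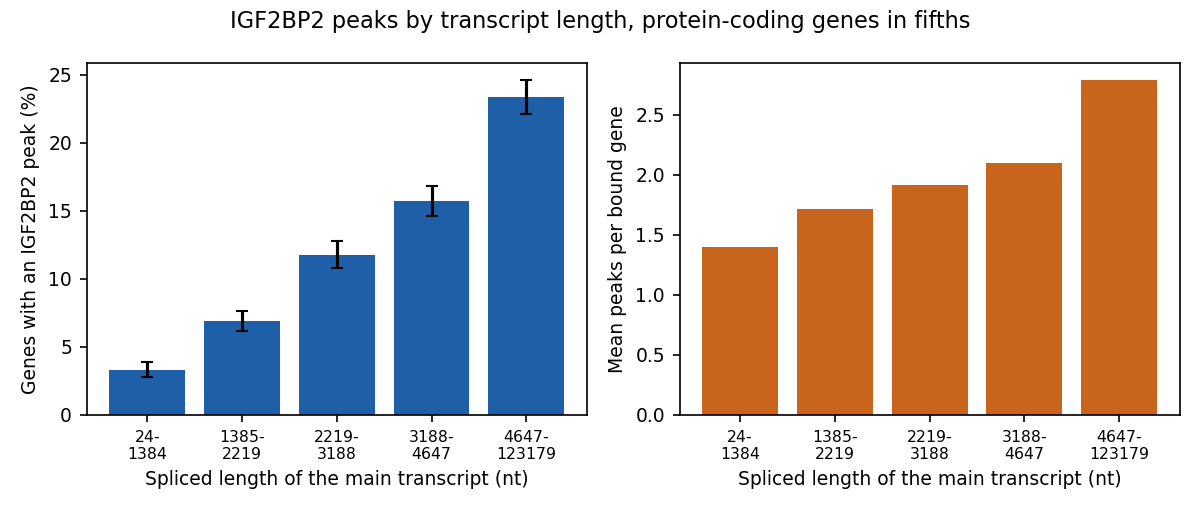
Left, the share of protein-coding genes with an IGF2BP2 peak (%) in 5 equal classes of spliced main transcript length (nt), with exact 95% binomial intervals as bars. Right, the mean number of peaks per bound gene, from 1.4 in the shortest class to 2.79 in the longest.

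The gene with the most IGF2BP2 peaks was Syne1, which encodes nesprin-1, a giant spectrin-repeat protein that links the nuclear envelope to the cytoskeleton. It had 38 peaks, 35 in coding sequence and 3 in introns, in 33 of its 146 exons. Their pileups ran from 2 to 20 and summed to 261. The summits covered 86.1% of the 27908 nt transcript from the outermost to the outermost, so many low peaks were scattered along it. The YTHDF2 list had 9 peaks in this gene and the YTHDC1 list 13.

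Myh9, the heavy chain of nonmuscle myosin IIA, had 24 peaks and the highest summed pileup of all genes, 884. Its peaks were unevenly placed. Downstream, from exon 22 to exon 40, 13 coding peaks had pileups from 5 to 141, and all but 2 of these were 29 or more. Upstream, 4 coding peaks in exons 12 to 15 had pileups of 4 to 7, and exon 2 had 1 of 29. The peaks of exons 22 to 27, at pileups of 141, 91, 57, 45, 120 and 59, formed an unbroken run over 6 neighbouring exons. The downstream part of myosin heavy chain genes encodes the coiled-coil rod. The highest fold, 67.4, lay in exon 23. The YTHDF2 list had 19 peaks in Myh9 and the YTHDC1 list 22.

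Centrosome genes stood next to them. Nin (ninein, which anchors microtubules) had 20 peaks with a summed pileup of 311, of which 14 were coding. Cntrl (centriolin) had 20 peaks and a summed pileup of 191, and Pcnt (pericentrin, a scaffold of the pericentriolar material) had 19 and 257. Cep250 (C-Nap1, which holds centrioles together) had 18 peaks, 17 of them coding, at pileups of up to 14. Cep128, a centriolar protein, had 16 peaks and a summed pileup of 257. The 5 genes differed in overlap with the other readers: 15 of the 20 Nin peaks but 6 of the 20 Cntrl peaks overlapped a peak of another list. The YTHDF2 and YTHDC1 lists had 14 and 14 peaks in Nin, and 5 and 4 in Cntrl.

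Ccdc88c, which encodes the signalling protein DAPLE, had 20 peaks and a summed pileup of 205. Of cytolinker genes, Utrn (utrophin) had 18 peaks and Plec (plectin) 17, with highest pileups of 21 and 39. Plec had 15 exonic summits in 8 of its 33 exons. Of genes for chromatin proteins, Baz2b, a bromodomain protein, had 21 peaks with a summed pileup of 328, and Baz1a, the ACF1 subunit of a chromatin remodeller, had 16 with 394. Col19a1, a collagen gene, had 20 peaks, 9 of them intronic, and the YTHDC1 list had 16 in it. Rrbp1, the ribosome-binding protein of the endoplasmic reticulum, had 19 peaks with 9 in introns.

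**Figure D2:**
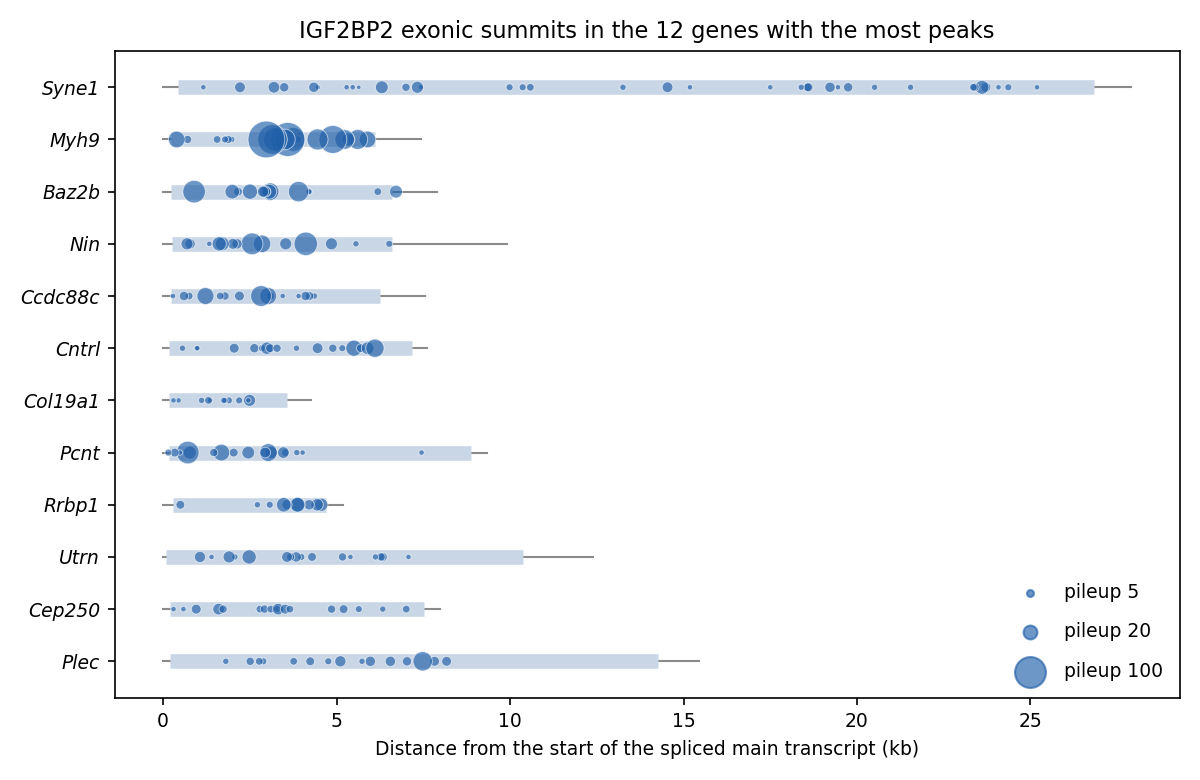
Exonic IGF2BP2 summits in the 12 protein-coding genes with the most peaks, by distance from the start of the spliced main transcript (kb). Each circle is a summit and its area is the pileup, pale bars are the coding sequence and thin lines the UTRs. Syne1 has 35 small circles along its length, and Myh9 has its largest circles downstream of 2.5 kb.

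The next genes stood out by summed pileup. Eif3a, the largest subunit of translation initiation factor 3, had 10 coding peaks with a summed pileup of 578 and a highest pileup of 107. In Anp32b, an acidic nuclear chaperone, 4 coding summits in exons 4 to 7 had pileups of 57, 119, 45 and 41 and lay within 202 nt of spliced sequence, 11.8% of the transcript. These are the last 4 of its 7 exons, and the acidic tail of the protein is encoded at the end of the coding sequence. Codons for glutamate make up 23.5% of its coding sequence. Ncl (nucleolin) had 4 peaks, of which that in exon 4 had a pileup of 176 and those in exons 2, 9 and 13 had 29, 11 and 53.

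Per length, the densest genes were others. Among genes with at least 5 exonic summits, Arid4a (an AT-rich interaction domain protein of a histone deacetylase complex) had 3.20 exonic summits per kb of spliced transcript. Cdk11b, a cyclin-dependent kinase with roles in transcription and splicing, had 3.15 and Hdgfl2, a chromatin-binding protein, had 3.08. Safb2 (scaffold attachment factor B2) had 3.05, and its 11 peaks had a summed pileup of 268. In Safb2 8 summits were called 3' UTR because some annotated transcript has one there, although all 8 lie in the coding sequence of the main transcript. Lrmp, a protein of the endoplasmic reticulum in blood cells, had 2.59, and none of its 7 peaks overlapped a peak of another list. Col19a1 had 2.58, Myh9 2.56 and Cep128 2.50.

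Genes with several exonic summits had them in several exons. In the 133 genes with at least 5 exonic summits, the distance between the outermost summits had a median of 47.8% of the spliced length (quartiles 35.7% and 65.2%), and it reached 50% in 63 genes. In no gene did all summits lie in 1 exon. This was nearly fixed in advance, as 5 separate peaks of at least 100 bp have little room in most exons. A median of 6 exons of 26 held a summit, and neighbouring summits lay a median of 297 nt apart (quartiles 137 and 631.5 nt). The widest was Dync1h1, the heavy chain of cytoplasmic dynein, whose 15 coding summits in 15 exons spanned 90.2%. Macf1, a giant microtubule-actin crosslinker, spanned 85.9%, Cep250 84.1%, Cdk6 80.5% and the chaperone gene Hsp90b1 80.1%. In Cdk6, a kinase of the G1 phase that is known to matter in myeloid leukaemia, 4 summits lay in the coding sequence and 1 far away in the long 3' UTR. The narrowest were Rbm33 (7.27%), Rdx (11.6%), Suds3 (11.8%) and Luc7l3 (13.4%). In Rdx, which encodes radixin, a linker of actin to the membrane, the 5 summits fell in the consecutive exons 9 to 13 with pileups of 6, 18, 25, 3 and 14. In Suds3, a subunit of the Sin3 deacetylase complex, 5 summits fell in exons 2 to 6 with pileups of 4 to 9.

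Exons over 100 and up to 200 nt held 48.7% of the 4027 exonic summits (47.2 to 50.3) and 30.3% of the bases of the same transcripts. Exons over 1000 nt held 13.4% of summits and 35.7% of bases, and the last exon held 11.7% of summits and 37.8% of bases. These exon classes were chosen after the values were seen, and overlap with the 3' UTR was not removed from them.

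Within the coding sequence the density of summits fell from start to stop. Of 3667 coding summits, 13.1% lay in the initial 10% of the coding sequence (12.1 to 14.3) and 5.59% in the final 10% (4.87 to 6.38). The downstream 50% held 42.6% (41.0 to 44.2), under the even value of 50%. In the YTHDF2 list the same share was 44.5% (41.9 to 47.0) and in the YTHDC1 list 44.7% (42.8 to 46.5). These values are from single libraries called over the same input, and they are given side by side only.

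**Figure D3:**
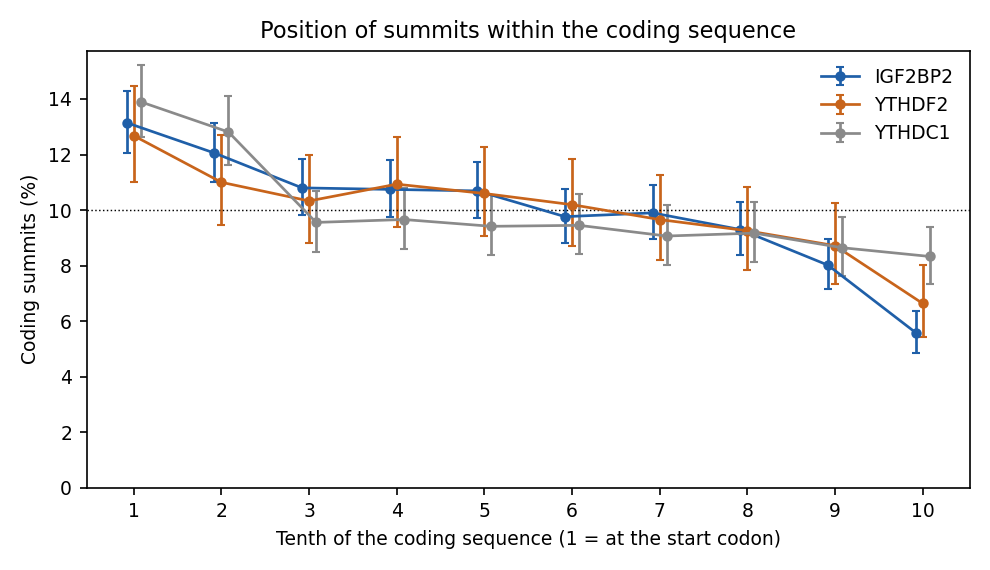
Share of coding summits (%) in each 10% bin of the coding sequence, from the start codon on the left to the stop codon on the right, for the 3 lists, with exact 95% binomial intervals. The dotted line is the even share of 10%. The IGF2BP2 share goes from 13.1% in bin 1 to 5.59% in bin 10.

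At coding summits GGAC was slightly more frequent than in the same coding sequences, and the CA-rich core was less frequent. GGAC, searched on the strand of the gene alone, was present in 43.4% (41.7 to 45.0) of 3559 full coding windows reaching 50 nt to either side of the summit. It was present in 39.2% of all windows of that length in the same coding sequences and in 37.7% over all coding transcripts. At YTHDF2 summits it was present in 42.5% against 39.1% in the coding sequences of their genes, and at YTHDC1 summits in 43.0% against 40.6%. At least 1 of CATA, CATC and CATT was present in 39.6% (38.0 to 41.2) of the windows, against 56.6% of all windows in the same coding sequences. The same share was 34.8% at YTHDF2 summits and 27.5% at YTHDC1 summits, against 56.0% and 54.9% in the coding sequences of their genes. The lower share of the CA-rich core at summits was thus present in all 3 lists. A match or its absence describes letters in these windows and not binding of the protein.

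Tetramers made of purines alone took ranks 1 to 7, and GATG, which holds a pyrimidine, was at rank 8. After the tetramers shown in capitals came AAGA (1.56 times the share in the same coding sequences), GAGA (1.55 times), GGAA (1.54 times) and GATG (1.54 times). GGAC stood at rank 39 with 1.17 times. The lowest were TATA at 0.444 times, and TTTA at 0.483, and CATA, part of the CA-rich core, was at 0.518. Purines made up 61.9% of bases in the windows and 55.8% of the coding sequences, while G and C together made up 53.6% and 52.3%. The tetramers were ranked on these same windows, so their ratios are a description. GAAG or GAGG, a pair chosen after that ranking, was present in 94.4% of windows (93.6 to 95.1) and in 82.4% of all windows of the same coding sequences.

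Read in frame, these windows were rich in codons for acidic residues. Codons for glutamate made up 15.5% of codons at summits and 9.62% in the whole coding sequences of the same genes, a ratio of 1.61. Codons for aspartate made up 7.11% against 5.58%, for arginine 7.99% against 6.64%, and for lysine 8.26% against 7.28%. The lowest ratios were those of phenylalanine (0.684), histidine (0.696), tyrosine (0.711) and proline (0.725). Codons of the same residue differed. GAG was at 9.44% against 5.74% (1.64 times) and GAA at 6.09% against 3.88% (1.57 times), so both glutamate codons were more frequent. AAG for lysine was at 1.23 times its share, but AAA, which is all purine too, was at 0.972 times. The ratio for glutamate codons was 1.67 in the YTHDF2 list and 1.83 in the YTHDC1 list, so it was above 1 in all 3.

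**Figure D4:**
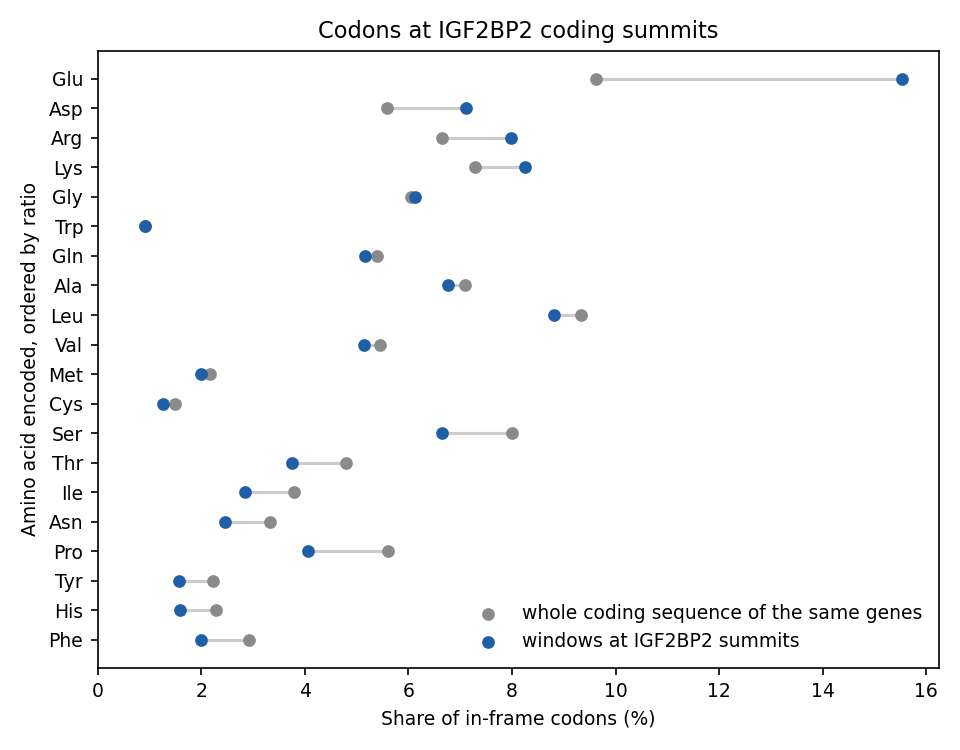
Share of in-frame codons (%) by the amino acid they encode, in the 3559 windows at IGF2BP2 coding summits (blue) and in the whole coding sequence of the same genes (grey), ordered by the ratio of the 2 shares. Glutamate is at 15.5% and 9.62%, and phenylalanine has the lowest ratio.

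The strongest peaks had more of these codons. These divisions were chosen after the values were seen. At the 526 windows with a pileup of at least 15, glutamate codons made up 21.9% against 10.9% in the same coding sequences, a ratio of 2.00. At the 1766 windows with a pileup of 5 or less they made up 13.3% against 9.06%, a ratio of 1.46. Purines made up 67.5% and 59.8% of bases in these 2 sets. The CA-rich core was present in 26.8% (23.1 to 30.8) and 45.6% (43.3 to 48.0) of them, and GGAC in 42.2% and 44.1%. The intervals of the 2 sets overlapped for GGAC and did not overlap for the core. At the 1697 windows that overlapped a peak of another reader glutamate codons made up 17.9%, and at the 1862 that did not, 13.3%. The whole coding sequence of the genes with such windows also differed with peak number. Here each gene was weighted by its number of coding windows, and bound genes without a window were left out. Glutamate codons made up 8.50% of it in genes with 1 peak and 9.03% with 2 to 4. They made up 10.7% with 5 to 9 and 11.1% with 10 or more. The unweighted mean over all coding genes was 6.53%, which is not directly comparable because of the unlike weighting. In the summit windows of the same groups, in the same order, glutamate codons made up 15.02%, 15.17%, 16.67% and 15.30%. The share at summits thus did not rise steadily with peak number, unlike that of the whole coding sequence. The part of base composition in these shares was not tested.

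Gene lists are described by how many of their members had an IGF2BP2 peak, beside the 12.2% over all protein-coding genes. No list was tested, and the lists were chosen with earlier results of these data known. Some of them hold genes named above for their many peaks, so the intervals are a description only. Apart from the cell type markers there were 23 lists, and in 20 of them the whole interval lay above that share. The intervals of Mediator, the proteasome and fatty acid and sterol synthesis included it. The part of expression in these shares was not tested. The actin list had the highest share of all 29. Of 25 genes of the actin cortex and cytolinkers, 21 had a peak (84.0%, 63.9 to 95.5) and 9 had at least 5. Beside Myh9, Utrn and Plec, Macf1 led them with 13 peaks. Of 24 microtubule motors and their adaptors 15 had a peak (62.5%, 40.6 to 81.2), led by Dync1h1 with 15 peaks, the kinesin Kif21b with 9 (highest pileup 36), the dynactin gene Dctn1 with 6 (74) and the centromere kinesin Cenpe with 4 (11). Of 9 tubulins 4 had a peak (44.4%, 13.7 to 78.8), Tuba1b with 3 and Tuba1a, Tuba1c and Tubb5 with 1 each.

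Genes for ribosome assembly and splicing were bound in most cases. Of 24 nucleolar genes 19 had a peak (79.2%, 57.8 to 92.9). Ubtf, a factor for RNA polymerase I, had 8 peaks with a highest pileup of 75, Pdcd11 had 8 with 10, and Mybbp1a had 5 with 13. Of 28 core spliceosome genes 21 had a peak (75%, 55.1 to 89.3) and 5 had at least 5. Srrm2, Acin1 and Sf3b2 had 9 peaks each, with highest pileups of 86, 16 and 19, and U2surp had 8 with 7. Of 21 genes of RNA polymerase II and elongation 11 had a peak. Supt6, a histone chaperone that travels with the polymerase, had 10 peaks, Supt16, a subunit of FACT, had 6 (highest pileup 40), Leo1 had 5, and Supt5 had 4 with a highest pileup of 48. Of 18 cleavage and polyadenylation genes 8 had a peak, with Fip1l1 at 5 peaks. Of 14 mRNA export genes 6 did, with Ddx39b at 4 and Thoc2 and Mcm3ap at 3. In Mediator 5 of 19 had a peak, with Med13l at 4, and Cdk8 had 2 with a summed pileup of 109.

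Genes of chromosome structure and repair were bound in part. Of 19 cohesin, condensin and SMC genes 13 had a peak (68.4%, 43.4 to 87.4). Smc1a had 7 peaks with a highest pileup of 24, Pds5a 6, Smc3 5 with none above a pileup of 5, and the cohesin loader Nipbl 4. Of 26 DNA repair genes 11 had a peak, and Top1, Parp1 and Top2a had 6, 5 and 5. Of 28 nuclear pore genes 10 had a peak. Tpr, a coiled-coil protein of the nuclear basket, had 6 peaks, all coding, while each other pore gene had 2 or fewer. Of 26 nuclear transport genes 10 had a peak, with Rangap1 and Tnpo1 at 5 each.

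Among genes of translation and protein turnover, 12 of 20 aminoacyl-tRNA synthetases had a peak (interval 36.1% to 80.9%) and none had 5. Lars and Cars had 4 each and Aars 3. Of 7 chaperonin CCT genes 4 had a peak, with Cct2 at 4. In the proteasome 8 of 32 had a peak (25%, 11.5 to 43.4, which includes the share over all genes), with 9 peaks in all and 2 in Psmc3. Giant ubiquitin ligases had 15 of 18 bound (83.3%, 58.6 to 96.4), and Huwe1 had 6 peaks with a highest pileup of 50. The median spliced length was 9437 nt in that list and 1561 nt in the proteasome list, so the lists differed in length too. Of 25 vesicle coat genes 9 had a peak, with Ap3d1 at 7 and Ap3b1 at 6. Of 13 PI3K-like kinase and mTOR genes 6 had a peak, with Rptor at 4, all intronic, and Smg1 and Mtor at 3.

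No metabolic gene of the lists had more than 3 peaks. Of 23 one-carbon and glutamine genes 10 had a peak (43.5%, 23.2 to 65.5), with Mthfd1l and Impdh2 at 3 each and highest pileups of 18 and 6. The amino acid transporter subunit Slc3a2 had 1 with a pileup of 11. Of 18 fatty acid and sterol synthesis genes 4 did, with Fasn, Acaca and Acly at 2 each, and the bound share of 22.2% had an interval of 6.41% to 47.6%.

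Genes linked to the disease or to the protein did not stand out in peak number. Of 33 acute myeloid leukaemia fusion partners and mutated genes 13 had a peak (39.4%, 22.9 to 57.9), and none had 5. Aff1, Stag2 and Sf3b1 had 4 each with highest pileups of 6, 8 and 5, and Npm1 had 3 with 17. The highest pileup of that list, 30, was in another member with 2 peaks. Of 12 textbook targets of the IGF2BP family 5 had a peak (41.7%, 15.2 to 72.3). Cd44 and Actb had 2 each, and Myc, Hmga2 and Ccnd3 had 1 each. The Myc peak lay in coding sequence with a pileup of 8. A coding element of Myc bound by the family is known, and whether the peak lies on it was not tested.

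**Figure D5:**
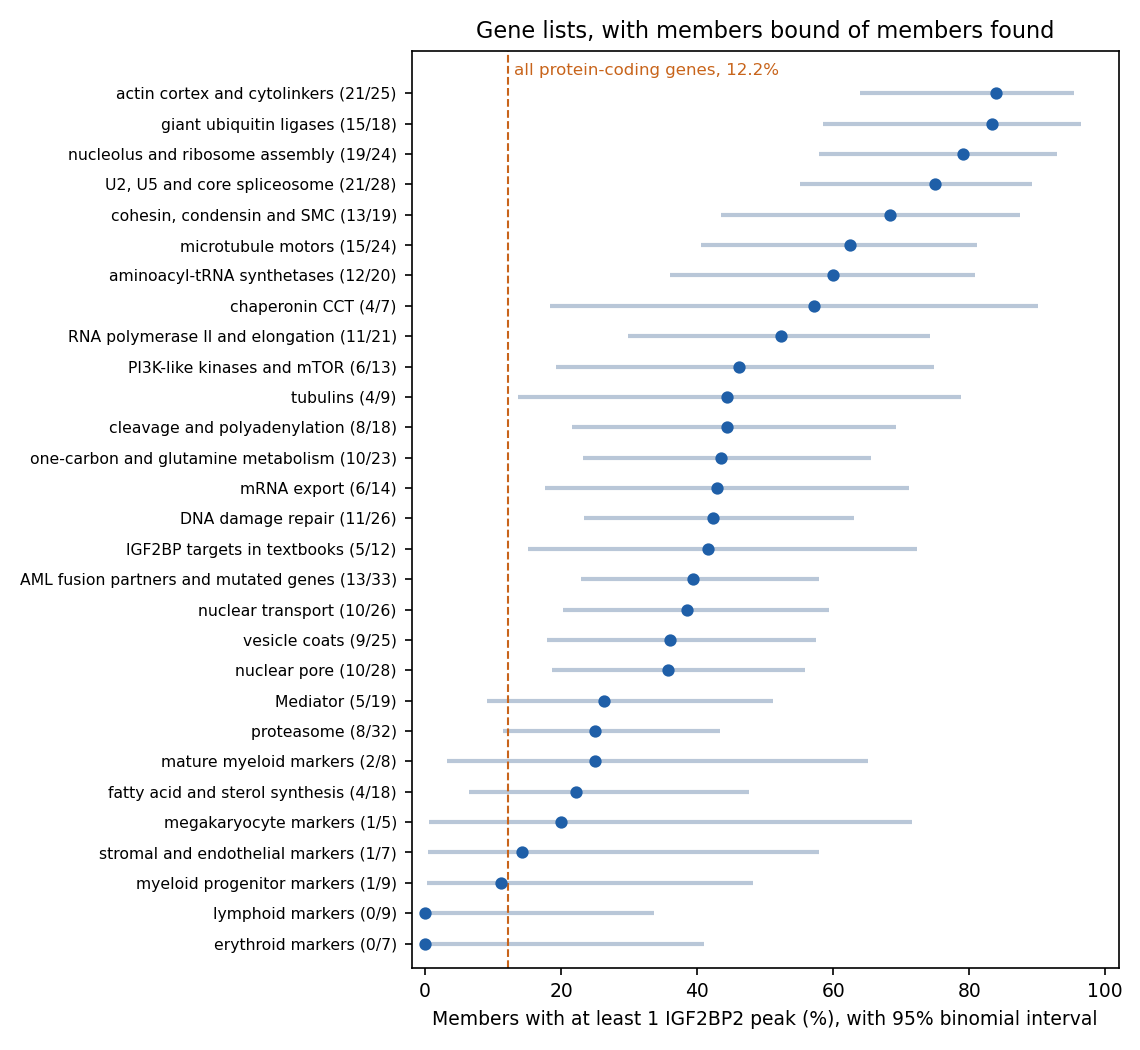
Share of members with at least 1 IGF2BP2 peak (%) in 29 gene lists, with exact 95% binomial intervals and, in brackets, members bound of members found. The dashed line is the share over all protein-coding genes, 12.2%. The actin cortex list is highest at 84.0%, and the lymphoid and erythroid marker lists are at 0.

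Regions differed in how often an IGF2BP2 peak overlapped a peak of another list. The share was 58.7% for the 213 peaks in 5' UTRs, 48.5% for the 3227 in coding sequence, 42.8% for the 1797 in introns and 41.1% for the 683 in 3' UTRs, against 46.6% (45.4 to 47.7) over all peaks. UTRs were ranked ahead of coding sequence here, so part of the peaks called UTR lie in the coding sequence of another transcript. With coding sequence ranked before UTRs it held 52.8% of all peaks instead of 45.65%. Median pileup was 6 in coding sequence and 5 in introns. Genes with the most intronic peaks were Rrbp1, Col19a1, Dock10 (a guanine nucleotide exchange factor of blood cells) and Coro7 with 9 each, Atp8b4 with 8 and Lrmda with 7. All 7 Lrmda peaks were intronic, and the YTHDC1 list had 25 in that gene. In Coro7 10 of 13 peaks overlapped a peak of another list. Some high peaks were intronic too, and the highest pileup over all intronic peaks was 199. Of the 6 single-peak genes with the highest pileup, 4 had it in an intron: Filip1l (120), the ETS factor gene Elf1 (115), Il31ra (105) and Peak1 (103). Their folds were 9.62, 72.1, 10.8 and 8.60, so that of Elf1 stood apart among these 4. The other two were Gm10800 (pileup 164, fold 6.66) and the 3' UTR of Lars2 (121, 16.1). All 6 overlapped a peak of another list. Whether these peaks lie in repeats was not tested.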

How the data were processed

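The authors deposited a peak list for each immunoprecipitate, called from 1 library over the shared input. Reads went through bcl2fastq 2.17, Trim Galore and HISAT2 on GRCm38, per the submitters' processing notes. The peak caller was not given in the sources used here. The deposited columns are a fold (ratio) over background, −log10 of a p-value and of a q-value, a score, and, per the file headers, the pileup signal at the summit. The smallest −log10 q was 2.01 and the smallest pileup 2. Depth was unknown, the lists gave no strand, and the input signal itself was not analysed here.

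Summits were placed on GENCODE M21 (GRCm38), with UTRs (3' before 5') ranked ahead of CDS, then other exons and introns, across the gene's transcripts. At 113 summits several genes tied and the one with the longest transcript was taken. Positions, lengths and sequences come from the longest complete coding transcript (main transcript), and gene totals from the 21809 genes that have one on the reference sequence. The members and the 29 gene lists were chosen with earlier results of these data known. In the lists 3 symbols were not found among protein-coding genes (Nup58, Cct6a and H19). Named genes are Prmt6, Mfsd2a and the Igf2bp genes, and those with the most peaks, summed pileup, summits per kb or intronic peaks. Also named are those with the widest and narrowest spans and the single-peak genes with the highest pileup. The rest are noncoding genes with the most peaks, and up to 4 members per list. Alternatives were stricter −log10 q, fold and pileup, the peak midpoint, exonic summits alone, CDS before UTR, a 51 nt window and a larger overlap. Python 3.11.15, pandas 2.3.3, numpy 2.4.6 and scipy 1.17.1 were used. The code for codon shares, motif windows and transcript positions was tested on simulated coding sequences and a made-up transcript. The code for gene assignment and peak overlap was not tested in this way. Of the genes that the naming rule takes, 1 is not reported here.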

Additional observations from a re-analysis of the deposited data

How the results depend on the processing

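Of 43 alternative values, 21 were counted as kept and 22 were not. Kept meant within the interval of the reported value, or within 1.5 times for a count. The share of summed pileup has no interval and was held to a small fixed difference in percentage points. With a fold or a pileup of at least 5, bound protein-coding genes numbered 1671 and 1688 instead of 2669, and genes with at least 5 peaks 143 and 146 instead of 262 (153 with exonic summits alone). The share of bound genes with 1 peak was then 57.5% and 57.2%, and 57.1% at a −log10 q of at least 5. The CDS share of peaks was 47.7% and 47.4% at that fold and pileup, and 52.8% with CDS ranked before UTR. In windows of 51 nt GGAC was present in 25.5% and the CA-rich core in 21.7%, as shorter windows hold fewer letters. At that fold and pileup the core was present in 35.7% and 35.7%. The leading 10% of genes held 49.5%, 46.0% and 45.6% of summed pileup at the stricter −log10 q, fold and pileup. The share of peaks that overlapped a peak of another reader was 46.6%, and 50.5%, 61.8% and 62.1% at the same 3 settings, and 39.6% when at least 50% of the peak had to overlap. The position within the coding sequence and the span along the transcript stayed within their intervals. No replicate could be left out. No paired analysis was possible because each reader has 1 library. Low peaks rest on as few as 2 stacked fragments, and depth is unknown.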

Other observations

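Genes that are not protein-coding held 271 IGF2BP2 peaks, of which 136 were in pseudogenes and 79 in lincRNAs. Malat1, an abundant nuclear RNA, had 3 peaks with a summed pileup of 262 and a highest pileup of 191. The pseudogenes Gm11889 and Gm9042 and the lincRNA Gm42047 had 3 peaks each, with summed pileups of 39, 16 and 12, and the mitochondrial rRNA mt-Rnr2 had 2 with folds of 4.25 and 4.93. Reads shared between a pseudogene and its parent gene cannot be traced in a peak list. The genes named next were chosen after their values were seen. Rn7s1 and Rn7s2, copies of the RNA of the signal recognition particle, had pileups of 191 and 184 at folds of 7.57 and 7.29. The local background at these summits, computed from pileup and fold with an assumed pseudocount of 1, was 24.4 in both. It was 1.22 at the coding peak of the chaperone gene Calr, whose pileup was 150 and whose fold was 68.1. Peaks of like pileup thus stood on very different backgrounds. Of the 801 peaks outside genes, 108 lay on the Y chromosome, where 116 peaks lay in all.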
